A study of Sus scrofa with 48 samples.

Results

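The comparison is between hypothalamus libraries of weaned pigs (Sus scrofa) sampled on day 39, with 6 libraries from low growth and 6 from high growth piglets. These 12 libraries are 12 of the 48 in the series and were chosen by their labels of tissue, day and growth class. Piglets were classed by how much weight they gained per day up to sampling, so both groups share tissue and day and are told apart in the labels by growth alone. Genotype, sex, litter, diet and batch are not given there, and the p-values measure the spread between libraries, which are separate animals only as far as each is labelled as a sample of its own. By its title and design text, the series asks how gut and brain differ when piglets eat and grow little after weaning. Low growth replicate 3 carries genes of the pineal gland, so each result is given with all 12 libraries and again with the 11 that are left without it.

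The hypothalamus sets appetite through neurons of its arcuate nucleus. NPY and AGRP from 1 set of these neurons promote feeding, and their activity is held down by leptin and insulin when energy is plentiful. Along the floor of the third ventricle lie tanycytes, long glial cells that take up thyroid hormone from blood and cerebrospinal fluid and pass signals to these neurons. Glucocorticoids released in stress or food shortage reach the same region through the receptors NR3C1 and NR3C2.

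In low growth libraries SLCO1C1, the thyroid hormone carrier of tanycytes and brain vessels, was above every high growth library. Low growth replicates 1 and 3 stood far above the rest, and without both its log2 fold change (low minus high growth) fell from 4.29 to 1.49. CYP26B1, NGFR and NPY had higher means than in high growth with wide spread inside the low growth group. None of these differences passed the main test, edgeR's quasi-likelihood test with Benjamini-Hochberg adjustment over all genes. The separate test of DESeq2 called SLCO1C1, NGFR and CYP26B1 with and without low growth replicate 3, and NPY without it. Most genes of the glucocorticoid response list lay slightly above 0, and nearly all cholesterol synthesis genes lay below 0, beside large differences between libraries in myelin genes. Without low growth replicates 1 and 3 the cholesterol list had a median close to 0.

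The libraries were checked against their label before any gene was compared. GAD1 and GAD2, which make the transmitter GABA used by most hypothalamic neurons, ranged from 41.4 to 308 and from 13.1 to 324 CPM (counts scaled by library size and composition) in the other 11 libraries. Low growth replicate 3 had 0.718 CPM of GAD1, 0.299 of GAD2 and none of SIM1 and OTP, transcription factors of hypothalamic neurons. A count of 0 leaves room for 3 counts, or 0.142 to 0.212 CPM depending on the library, as a matter of counting error only. The same library held 749 CPM of CRX, the regulator of pineal and photoreceptor genes, which was at 0 in 10 of the other libraries and at 0.0471 CPM in high growth replicate 2. Its ASMT, which completes melatonin synthesis, was 1552 CPM against 0.124 to 3.67 elsewhere. AANAT, the enzyme before it in that pathway, was 301 CPM against 1.30 to 7.25. In 23 of 26 pineal markers with a symbol it was the highest of the 12 libraries, and their summed level was 8873 CPM against 87.3 to 141.3 CPM. SLC17A6, the glutamate transporter of hypothalamic neurons, was 39.6 CPM in it, inside the 5.69 to 175 CPM of the others. GAD1 and GAD2 are thus near 0 in this library, SLC17A6 is not, and markers of pineal gland are high.

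Low growth replicate 1 also stood apart. It held 3602 CPM of CGA, the shared subunit of pituitary glycoprotein hormones, where the other 11 libraries had at most 4.60 CPM. FSHB, the specific subunit of follicle-stimulating hormone, was 1062 CPM there and at most 1.21 CPM elsewhere, and TSHB, that of thyrotropin, was 17.2 CPM against at most 0.0601. Prolactin, another pituitary hormone, was at 0.0528 CPM in that library. The same library kept hypothalamic genes, with 86.4 CPM of GAD1 and 19.0 CPM of OTP. It had the highest level of CRYM, LHX2 and TBX3, genes of tanycytes and the mediobasal hypothalamus. Across 14 pituitary markers with a symbol it was highest in 8, with a sum of 7389 CPM against 44.0 to 704 CPM in the others. Low growth replicates 4 and 5 and high growth replicate 3 had 0.421 CPM or less of OTP and 0.211 CPM or less of SIM1, while the other 8 libraries besides replicate 3 had at least 6.64 and 0.633 CPM. In such tissue pieces fewer cells of a type and less RNA per cell cannot be told apart.

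**Figure D1:**
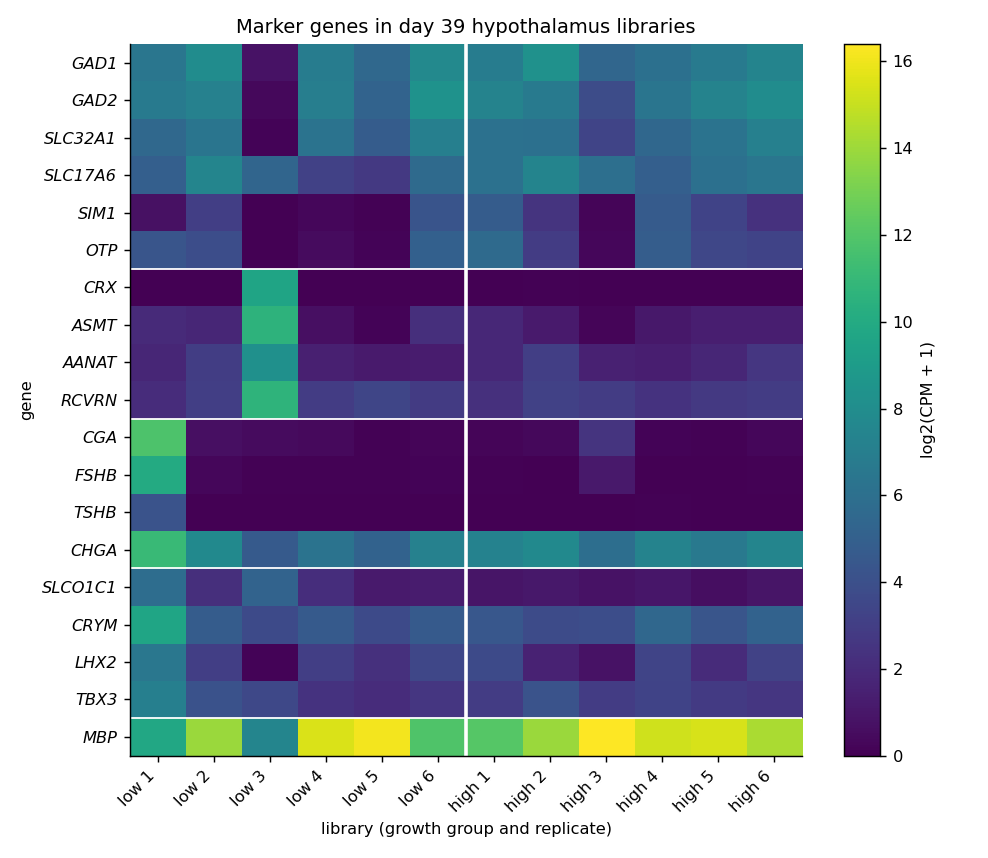
Level of marker genes (rows) in each day 39 hypothalamus library (columns), as log2(CPM + 1) by colour. From top to bottom the blocks are neurons of the hypothalamus, pineal gland, pituitary, tanycytes and mediobasal hypothalamus, and MBP of myelin; low growth replicate 3 lights up in the pineal block and low growth replicate 1 in the pituitary and tanycyte blocks.

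Total estimated counts per library were 14168700 to 21122800, and 14571 to 15611 genes reached a count of 10. The median Spearman correlation of low growth replicate 3 with the other day 39 libraries was 0.924, against 0.957 to 0.979 for the others. Genes of the Y chromosome summed to more than 1 CPM in high growth replicates 1, 4 and 5 and in 0 of 6 low growth libraries. EIF1AY, a Y-linked translation factor gene, was 29.8 to 39.0 CPM in those 3 libraries and 0.281 CPM in low growth replicate 4. KDM5D, a Y-linked histone demethylase, was at 7.56, 7.03 and 7.53 CPM in those 3 libraries and at 0 in the other 9. Both tested Y-linked genes, KDM5D and EIF1AY, lay below 0, and DESeq2 called KDM5D lower in low growth with and without replicate 3, and this split follows the Y-expressing libraries.

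With all 12 libraries, 0 of 15865 genes passed edgeR's test at an adjusted p of 0.05, which is 0.0%, and the lowest adjusted p was 0.359. Without low growth replicate 3 it was 0 of 16016, again 0.0%, and the lowest adjusted p was 1.0. DESeq2 called 18 genes (0.113%), 16 of them higher in low growth, and 7 without replicate 3 (0.0437%), 6 of them higher. Limma voom called 0 in both. Those of DESeq2's 18 with a symbol were SLCO1C1, PAPLN, RPE65, DSE, CCDC68, CYP26B1, MSX1, CAPN6, TFPI2, FAXDC2, NGFR, SLC6A4 and DDC, all higher, and KDM5D, lower. Without replicate 3 they were SLCO1C1, CYP26B1, NPY and NGFR, higher, and KDM5D. DESeq2 gave no adjusted p to 145 genes with all libraries and to 81 without replicate 3. Without replicate 3 PAPLN, RPE65, CCDC68, MSX1, CAPN6 and TFPI2 were among these, so they could not be called there. At an unadjusted p under 0.05 edgeR had 864 genes, 753 higher (4.75%) and the rest lower (0.7%). Without replicate 3 there were 374, of which 269 were higher (1.68%) and 105 lower (0.656%), and 266 genes were on both lists, or 30.8% of the first and 71.1% of the second. Limma voom had 459 and 231 genes at that unadjusted p. Log2 fold changes, always low minus high growth, were above 0 in 53.7% of genes with all libraries and in 52.2% without replicate 3, with medians of 0.02 and 0.01.

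A single library led most of the higher genes. Of the 753 genes higher at unadjusted p, low growth replicate 3 was the highest low growth library in 564 (74.9%) and replicate 1 in 161 (21.4%). Without replicate 3, replicate 1 was the highest in 223 of 269 (82.9%). When both were left out, 78 genes were higher and 106 lower at that p, so low growth replicate 1 decides the number of higher genes once replicate 3 is gone.

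The genes of lowest p with all 12 libraries included several at high levels in low growth replicate 3 only. SLC17A7, a vesicular glutamate transporter, was 1445 CPM there and at most 4.21 CPM elsewhere, and its log2 fold change moved from 7.55 ± 1.66 (SE) to 0.37 ± 0.44 without that library. SAAL1 moved from 5.58 ± 1.24 to 0.22 ± 0.12 and GNB3, a subunit of cone and pineal G proteins, from 7.43 ± 1.70 to -0.27 ± 0.46. PCP2 and IMPG2 did the same. SLC6A4, the serotonin transporter, was 713 CPM in that library and at most 1.06 CPM in the other 11. It was called by DESeq2 with all libraries (adjusted p = 0.000316) and had an adjusted p of 1.0 without replicate 3. DDC, which makes serotonin and dopamine from their precursors, was 611 CPM there against 6.76 to 21.7 CPM.

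SLCO1C1 (ENSSSCG00000000585, Sscrofa11.1 chromosome 5, 52234396 to 52315311) is the member of the tanycyte list with the lowest p. In low growth replicates 1 to 6 it was at 56.2, 3.57, 35.7, 3.51, 1.24 and 1.43 CPM. In high growth replicates 1 to 6 it was at 0.944, 1.08, 0.726, 0.961, 0.529 and 0.888 CPM. Every low growth library lay above every high growth one, but replicates 1 and 3 were far above the other 4. The log2 fold change was 4.29 ± 0.93 (edgeR adjusted p = 0.359) and 3.93 ± 0.93 without replicate 3 (adjusted p = 1.0). DESeq2 gave adjusted p-values of 0.000541 and 0.0156. Without replicates 1 and 3 the log2 fold change was 1.49. Low growth replicate 1 thus carried most of the value that is left without replicate 3, and it is the library with the pituitary and other tanycyte genes; their part in the result was not tested.

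Several other genes of the tanycyte list followed low growth replicate 1. CRYM, which binds thyroid hormone in the cytosol, was 815 CPM there and 11.7 to 25.8 CPM in the other low growth libraries, against 12.3 to 44.4 CPM in high growth. Its log2 fold change of 2.89 ± 0.88 without replicate 3 was -0.18 without replicates 1 and 3. LHX2, a transcription factor of tanycytes, was 88.5 CPM in replicate 1 and 0.12 to 10.2 CPM in the rest of low growth, against 0.726 to 11.6 CPM in high growth. MSX1, a homeobox factor of the embryonic midline, is on the choroid plexus list and not on the tanycyte list. It was 110.7 CPM in replicate 1, and its log2 fold change of 3.96 without replicate 3 was -0.03 without replicates 1 and 3. CAPN6, a calpain-family protein without protease activity that is also outside the tanycyte list, went from 4.35 to -0.15. Both were named for a low p or high fold change. On the tanycyte list, STRA6, the receptor that takes up vitamin A, and ALDH1A1, which makes retinoic acid, were also highest in replicate 1, at 52.1 and 116.7 CPM. DIO2, which converts thyroxine to the active hormone, was at 80.8, 21.7, 2.39, 19.1, 28.4 and 3.47 CPM in low growth. In high growth it was at 4.56, 16.3, 22.6, 5.04, 13.1 and 10 CPM, and the groups overlapped. Its log2 fold change was 1.13 ± 0.67, and 1.37 ± 0.63 without replicate 3. Of the 22 tested genes of the list 17 lay above 0 with all libraries and 16 without replicate 3, with medians of 0.57 and 0.38, but without replicates 1 and 3 it was 10 of 22 with a median of -0.05. None passed the adjusted threshold. At unadjusted p 5 and 6 were higher, beside 4.75% and 1.68% of all genes, and 1 and 0 were lower.

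CYP26B1 (ENSSSCG00000008311), the enzyme that degrades retinoic acid, followed other libraries. Low growth replicates 1 to 6 were at 6.33, 1.49, 0.778, 26.9, 19.8 and 1.94 CPM. High growth replicates 1 to 6 were at 1.06, 1.74, 0.564, 1.14, 1.18 and 1.23 CPM. Replicates 1, 4, 5 and 6 of low growth lay above all of high growth, and replicates 2 and 3 lay inside its range. The log2 fold change was 3.03 ± 0.75 with all libraries and 3.27 ± 0.70 without replicate 3, where it had the lowest p of the genes named here (edgeR adjusted p = 1.0, DESeq2 adjusted p = 0.00483). Without replicates 1 and 3 it was 3.42, so CYP26B1 did not rest on either of the libraries with pineal or pituitary genes. Its highest libraries, replicates 4 and 5, were also those with the most myelin genes of the low growth group, at list means of 9.64 and 10.2 log2 CPM. High growth replicates 3 and 5 had list means of 9.99 and 9.46 log2 CPM and CYP26B1 at 0.564 and 1.18 CPM. Whether myelin content bears on CYP26B1 was not tested.

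CRABP1, which binds retinoic acid in the cytosol, was 6340 CPM in low growth replicate 3 and 39.8, 30.4, 34.2, 14 and 5.5 CPM in replicates 1, 2, 4, 5 and 6. High growth had 7.56, 13.9, 9.27, 5.22, 2.18 and 6.51 CPM. Outside replicate 3, then, 4 low growth libraries were above every high growth one and the fifth lay within their range. The log2 fold change of 7.18 ± 1.66 was 1.74 ± 0.82 without replicate 3 and 1.5 without replicates 1 and 3. EdgeR did not call it, and DESeq2 gave no adjusted p with all libraries and 1.0 without replicate 3.

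NGFR (ENSSSCG00000017548, chromosome 12, 25699410 to 25720355), the low-affinity receptor of nerve growth factor, is known from Schwann cells and from some glia of the brain's midline. It stood at 153, 4.02, 172, 52.3, 22 and 2.4 CPM in low growth. High growth was at 2.72, 3.63, 5.16, 2.64, 4.47 and 3.31 CPM. Replicates 1, 3, 4 and 5 of low growth were above every high growth library, and replicates 2 and 6 were not. The log2 fold change was 4.21 ± 0.95, then 3.68 ± 0.92 without replicate 3 and 2.46 without replicates 1 and 3. DESeq2's adjusted p was 0.000316 and, without replicate 3, 0.0156.

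**Figure D2:**
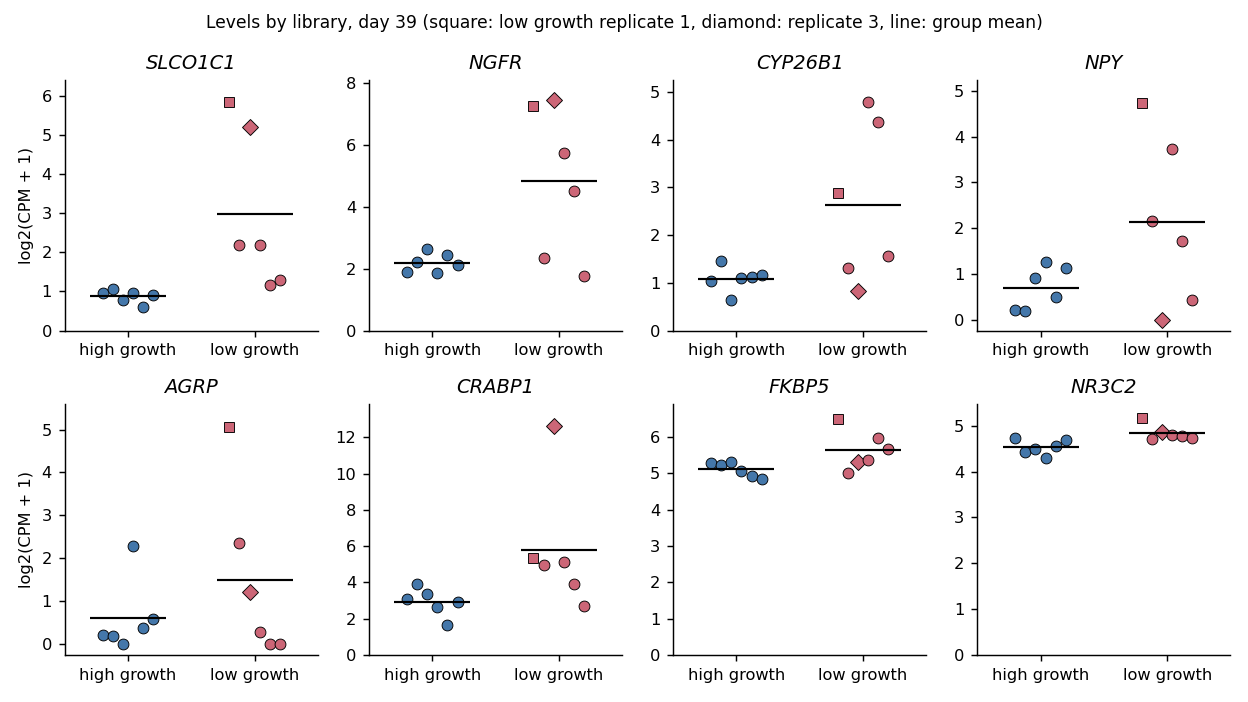
Level of 8 genes in each library as log2(CPM + 1), high growth on the left and low growth on the right of each panel, with the group mean as a line. Low growth replicate 1 is a square and replicate 3 a diamond; SLCO1C1 separates the groups, while CYP26B1, NPY and NGFR show a few high low growth libraries above a narrow high growth group.

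Among feeding peptides, NPY (ENSSSCG00000016718, chromosome 18, 47985796 to 47993726), the strongest known promoter of food intake in this region, was the list member with the lowest p. Low growth replicates 1 to 6 were at 25.9, 3.44, 0, 12.4, 2.29 and 0.357 CPM. High growth replicates 1 to 6 were at 0.167, 0.141, 0.887, 1.38, 0.412 and 1.18 CPM. In low growth 4 of 6 libraries lay above every high growth library, and replicate 3, with the pineal genes, was at 0. Low minus high growth gave a log2 fold change of 3.40 ± 1.0 with all libraries (edgeR adjusted p = 0.611, DESeq2 adjusted p = 0.0767). Without replicate 3 it was 3.67 ± 0.87 (edgeR adjusted p = 1.0, DESeq2 adjusted p = 0.0156) and without replicates 1 and 3 it was 2.72. The levels are low, and high growth replicates 1 and 2 held 3 or fewer counts of it.

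AGRP, the melanocortin antagonist made by the same neurons, was at 32.4, 4.15, 1.32, 0.211, 0 and 0 CPM in low growth. In high growth it was at 0.167, 0.141, 0, 3.84, 0.294 and 0.493 CPM. The groups overlapped and low growth replicate 1 alone stood high. The growth groups differed by a log2 fold change of 2.94 ± 1.46, 3.15 ± 1.5 without replicate 3 and 0.37 without replicates 1 and 3. GHRH, the arcuate peptide that drives growth hormone release, behaved alike, with 27.5 CPM in low growth replicate 1, at most 0.908 CPM in the other low growth libraries and at most 2.86 CPM in high growth. Its log2 fold change turned from 2.73 ± 1.21 without replicate 3 to -1.01 without replicates 1 and 3. NMU, a peptide that lowers intake, was tested only without replicate 3 and was also highest in replicate 1, at 7.55 CPM. Of these 4 peptides NPY had the largest value without replicates 1 and 3. Low growth replicates 1 and 2, with 25.9 and 3.44 CPM of NPY, also had 32.4 and 4.15 CPM of AGRP. Replicates 4 and 5 had 12.4 and 2.29 CPM of NPY but 0.211 and 0 CPM of AGRP. Whether NPY in these libraries came from the arcuate feeding neurons was not tested.

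Peptides of other nuclei varied widely between libraries of the same group. AVP, the gene of vasopressin, was at 53.7, 1.69, 5.69, 25.7, 125 and 2231 CPM in low growth. In high growth it was at 3439, 5.75, 9.51, 20290, 2748 and 90.2 CPM. Both groups spanned low and high levels, and the 3 highest of the 12 were the 3 Y-expressing high growth libraries. Low minus high growth gave a log2 fold change of -3.44 ± 1.88 with all libraries (adjusted p = 0.971) and -3.18 ± 1.97 without replicate 3. Without the Y-expressing high growth libraries it was 3.55, on the other side of 0. OXT, the oxytocin gene beside it on chromosome 17, had log2 fold changes of -1.54 ± 1.79 and -1.28 ± 1.82 and turned to 1.94 without those libraries. In the list of magnocellular and releasing hormones 5 of 11 tested genes lay above 0 with all libraries and 4 of 11 without replicate 3, with medians of -0.58 and -0.42. Without the Y-expressing high growth libraries 10 of 11 lay above 0 with all other libraries and 9 of 11 without replicate 3, with medians of 1.06 and 0.94, so the list turned with AVP and OXT.

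PMCH and HCRT, the melanin-concentrating hormone and orexin genes of the lateral hypothalamus, were led by low growth replicate 2 at 685 and 309 CPM, with at most 5.63 and 11.7 CPM in the other low growth libraries. High growth ranged from 11.9 to 418 CPM for PMCH and from 12.3 to 268 CPM for HCRT. Their log2 fold changes were -0.41 ± 1.30 and -1.04 ± 1.12, and the groups overlapped for both. CARTPT, which lowers intake, was at 0 to 68.8 CPM in low growth and 8.41 to 220 CPM in high growth. LEPR, the leptin receptor, and GHSR, the ghrelin receptor, had log2 fold changes of 0.07 ± 0.32 and 0.02 ± 0.36, and 0.23 ± 0.30 and -0.01 ± 0.38 without replicate 3. For LEPR and GHSR an interval of 2 SE around the value without replicate 3 reaches under 1 on either side, so differences of 2-fold were outside it. Somatostatin, SST, was 120 ± 108 CPM in low and 98.4 ± 81.7 CPM in high growth (SD, n = 6). Of the 16 tested feeding-promoting genes 6 lay above 0 in both analyses, with medians of -0.32 and -0.06. Of the feeding-lowering genes it was 8 of 15 and 10 of 16, with medians of 0.00 and 0.20, and of the growth hormone, somatostatin and IGF axis 12 and 8 of 15, with medians of 0.41 and 0.10.

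Genes whose groups did not overlap were few, and were picked for that separation. With this many genes compared some separate by chance alone, and the number to expect was not worked out. The separation of a gene below is thus description only, and no sign of a growth effect that the adjusted test missed. Some were still led by single libraries, such as SLCO1C1 and, in replicate 3, DENND4A at 76.4 CPM against 42.5 to 47.1 CPM in the rest of low growth. With all 12 libraries, 10 genes were higher in every low growth library than in any high growth one (0.063% of those tested) and 5 were lower (0.0315%). Without replicate 3 it was 21 (0.131%) and 10 (0.0624%). SPAG11 (chromosome 15, 38027922 to 38037608), known as a defensin-like gene of the epididymis, was at 0.845, 0.779, 0.539, 0.912, 1.42 and 1.22 CPM in low growth. In high growth it was at 1.61, 1.65, 1.94, 2.70, 1.65 and 2.66 CPM. The low growth libraries all lay below, at few reads per library. Its log2 fold change was -1.09 ± 0.27 (edgeR adjusted p = 0.412, DESeq2 adjusted p = 0.0642) and -0.97 ± 0.27 without replicate 3.

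SH2D4B (chromosome 14, 82378044 to 82467236), which encodes a protein with an SH2 domain, was at 3.54, 3.57, 3.95, 3.79, 2.91 and 4.43 CPM in low growth. High growth replicates 1 to 6 stood at 5.83, 7.77, 6.53, 5.10, 5.59 and 5.87 CPM. Both groups were tight and separate, and no library stood apart. The growth groups differed by a log2 fold change of -0.72 ± 0.21 with all libraries, -0.74 ± 0.22 without replicate 3 and -0.74 without replicates 1 and 3. It did not pass the test, with an edgeR adjusted p of 0.578 and 1.0. CCDC60, a coiled-coil gene of little known function, was 4.73 ± 0.655 CPM in low and 3.02 ± 0.77 CPM in high growth (SD, n = 6). Its log2 fold change was 0.65 ± 0.22, and 0.65 ± 0.23 without replicate 3. L3MBTL3, a reader of methylated histones, was 16.4 ± 1.22 against 13.6 ± 1.34 CPM, a log2 fold change of 0.27 ± 0.10. USP44, a histone deubiquitinase, was 0.951 ± 0.255 against 0.367 ± 0.123 CPM, a log2 fold change of 1.36 ± 0.49. DENND4A, KANSL1L, RIC1 and PGGT1B completed the higher genes with a symbol, at log2 fold changes of 0.22 to 0.46. MRM3 and TACO1, which serve mitochondrial ribosomes and cytochrome oxidase synthesis, and DCUN1D2 were the other lower ones, at -0.30 to -0.28. The lowest edgeR adjusted p among these 15 genes was that of SLCO1C1, and edgeR called none of them, while DESeq2 called SLCO1C1.

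The glucocorticoid response list holds the receptors and genes that the hormone-bound receptor is known to switch on. With all libraries 17 of its 20 tested genes lay above 0, with a median of 0.20. Without replicate 3 it was 18 of 20 with a median of 0.23, and without replicates 1 and 3 it was 15 of 20 with a median of 0.14. This stands beside 53.7% and 52.2% of all genes above 0. Without the Y-expressing high growth libraries 14 of 20 lay above 0, and 16 of 20 without replicate 3 as well, with medians of 0.24 and 0.27. The mean log2 CPM over the list ran from 4.13 to 4.95 in low growth libraries and from 4.15 to 4.60 in high growth libraries, so the groups overlapped. FKBP5, the co-chaperone that dampens the receptor and is a standard readout of its activity, was at 89.5, 31.3, 38.8, 40.5, 62.1 and 49.8 CPM in low growth. The high growth libraries were at 38.2, 36.8, 38.5, 32.7, 29.3 and 28 CPM. Of the low growth libraries 5 were above every high growth one and replicate 2 was inside their range. Low minus high growth gave a log2 fold change of 0.62 ± 0.28 (edgeR adjusted p = 0.884), 0.69 ± 0.30 without replicate 3 and 0.43 without replicates 1 and 3.

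NR3C2, the mineralocorticoid receptor that binds the same hormone at low levels, was at 34.9, 25.4, 28, 26.8, 26.6 and 25.5 CPM in low growth. High growth replicates 1 to 6 stood at 25.8, 20.5, 21.4, 18.6, 22.4 and 24.8 CPM. Only high growth replicate 1 reached into the low growth range. The growth groups differed by a log2 fold change of 0.33 ± 0.12 and 0.32 ± 0.12 without replicate 3. ZBTB16, a transcription factor induced by the hormone, was at 32.1, 33.7, 7.78, 20, 33.8 and 30.6 CPM in low growth and at 14.4 to 25.3 CPM in high growth. Here the log2 fold change moved up from 0.48 ± 0.31 to 0.67 ± 0.26 without replicate 3 and was 0.63 without replicates 1 and 3. HSD11B1, which regenerates active cortisol, was 84.6 CPM in low growth replicate 1 and 8.56 to 26.2 CPM in the others, against 16.4 to 22.8 CPM in high growth. These 4 genes were those of the list at unadjusted p under 0.05 without replicate 3, and 0 passed the adjusted threshold. Of all genes 1.68% were higher at that p in the same fit. SGK1 and KLF9 followed a different order, with their highest low growth values in replicate 5 at 152 and 125 CPM and the highest high growth values in replicate 3 at 85.9 and 94.2 CPM, which are the 2 libraries with the most myelin genes. The receptor gene NR3C1 had log2 fold changes of -0.03 and 0.12.

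In the clock list 17 of 20 genes lay above 0 in both analyses, but the median went from 0.23 to 0.12 without replicate 3 and to -0.01 without replicates 1 and 3. BMAL1, the positive arm of the clock, was at 18.8, 12.6, 50.3, 15.3, 19.8 and 16.1 CPM in low growth. The high growth libraries were at 12.7, 11.07, 10.2, 14.53, 12.5 and 13.9 CPM. Low growth replicate 3 was far above the rest, and the other low growth libraries except replicate 2 were still above every high growth one. Low minus high growth gave a log2 fold change of 0.83 ± 0.33 and 0.40 ± 0.28 without replicate 3. RORA, which drives BMAL1, moved from 1.46 ± 0.52 to 0.46 ± 0.38 and CRY2, a repressor of the clock, from 0.49 to 0.04. PER1 and PER2, clock repressors that also respond to glucocorticoids, had 0.29 and 0.39 without replicate 3. The time of day of sampling is not given.

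**Figure D3:**
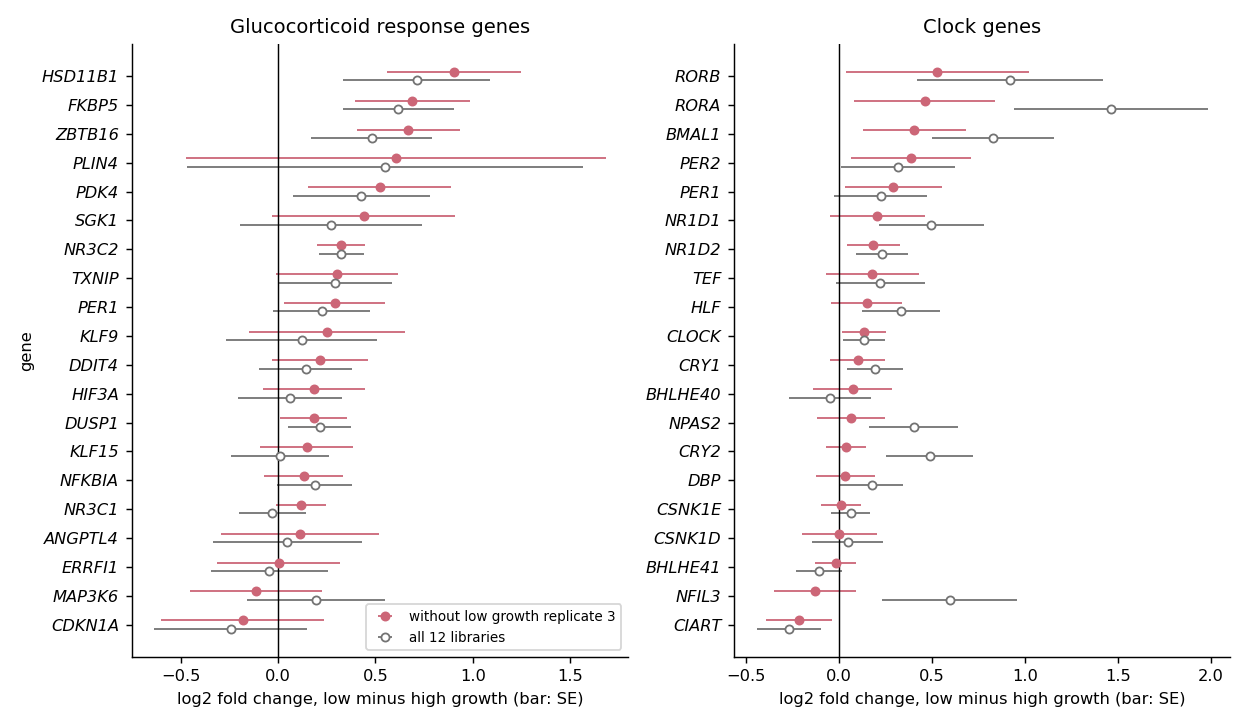
Log2 fold change (low minus high growth) with its SE for each tested gene of the glucocorticoid response list (left) and the clock list (right). Filled points leave out low growth replicate 3 and open points use all 12 libraries; most glucocorticoid genes keep a small positive value, and several clock genes come closer to 0 without that library.

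Cholesterol synthesis genes, which act together under the sterol sensor SCAP and its target factor, lay below 0 in 24 of 25 cases in both analyses. The median log2 fold change was -0.43 with all libraries, -0.23 without replicate 3 and -0.05 without replicates 1 and 3, where 6 of 25 lay above 0. None of the 25 reached an unadjusted p of 0.05. TM7SF2, DHCR7 and HSD17B7, enzymes of the later steps, had the lowest p, at -0.50 ± 0.40, -0.36 ± 0.34 and -0.34 ± 0.30 without replicate 3. HMGCS1, an enzyme of the early steps, ranged from 349 to 2592 CPM in low growth and from 768 to 3161 CPM in high growth, and the groups overlapped.

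Myelin genes varied between the same libraries. MBP, the main protein of myelin, was at 913, 15521, 172, 46430, 72016 and 3743 CPM in low growth. The high growth libraries were at 4404, 15559, 86537, 37309, 43619 and 20498 CPM. The mean log2 CPM of the 20 tested myelin and oligodendrocyte genes was 5.22, 8.19, 3.72, 9.64, 10.2 and 6.91 in low growth replicates 1 to 6 and 6.96, 8.22, 9.99, 8.65, 9.46 and 8.54 in high growth. For the cholesterol list the same mean was 5.63, 6.70, 5.43, 7.20, 7.49 and 6.16 in low growth and 6.18, 6.66, 7.79, 7.23, 7.08 and 6.71 in high growth. Libraries low in myelin genes were low in cholesterol genes in both groups, low growth replicates 3 and 1 lowest of all. The part of myelin content in the lower cholesterol values was not tested. Myelin genes themselves lay above 0 in 1 of 20 cases with all libraries (median -0.23), in 12 of 20 without replicate 3 (median 0.03) and in 18 of 20 without replicates 1 and 3 (median 0.30). Without the Y-expressing high growth libraries it was 0 of 20 (median -0.43), and 1 of 20 without replicate 3 as well (median -0.17). Their direction thus depends on which libraries of both groups are used.

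**Figure D4:**
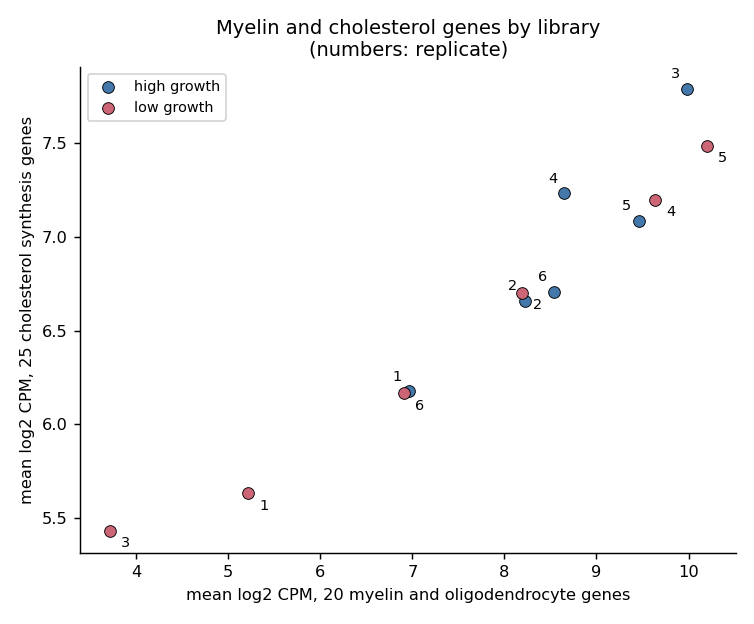
Mean log2 CPM of the cholesterol synthesis list (vertical axis) against that of the myelin and oligodendrocyte list (horizontal axis), 1 point per library with its replicate number. Libraries of both growth groups follow 1 rising course from low growth replicate 3 at 3.72 and 5.43 to low growth replicate 5 and high growth replicate 3 at the upper end.

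Energy and protein synthesis lists differed little. Of 44 nuclear genes of oxidative phosphorylation 14 lay above 0 with all libraries and 3 without replicate 3, with medians of -0.04 and -0.09, and 0 reached an unadjusted p of 0.05. Of 44 cytosolic ribosomal protein genes it was 24 and 33, with medians of 0.02 and 0.06. Heat shock and chaperone genes were above 0 in 15 and 11 of 26 cases, with medians of 0.02 and -0.01. Genes of the amino acid starvation and unfolded protein response were above in 11 and 7 of 20, with medians of 0.05 and -0.06. Immediate early genes, which mark recent neuronal activity, were above in 14 and 15 of 20, with medians of 0.05 and 0.09. FOS, the most used of them, was at 2.04 to 11 CPM in low growth and 2.90 to 39.4 CPM in high growth. Interferon-stimulated and inflammatory genes were above in 15 and 13 of 23, with medians of 0.12 and 0.05.

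Cell type lists showed mainly the makeup of each library. GABA neuron genes were above 0 in 3 of 11 cases with all libraries and in 10 of 11 without replicate 3, with medians of -0.13 and 0.10. Their summed level was 80.7 CPM in that library and 604 to 1677.5 CPM in the others. Glutamate neuron genes were above in 5 and 7 of 11, with medians of -0.02 and 0.11, and pan-neuronal and synaptic genes in 6 and 3 of 18, with medians of -0.20 and -0.15. NEFL, a filament of long axons, ranged from 152 to 518 CPM in low and from 377 to 618 CPM in high growth. Hypothalamic transcription factors were above in 11 and 10 of 19, with medians of 1.01 and 0.10. Serotonin and catecholamine genes were above in 5 of 10 in both, with medians of 0.04 and 0.05.

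Astrocyte genes were above 0 in 4 and 6 of 14 cases, with medians of -0.18 and -0.01. ALDH1L1, a folate enzyme that marks astrocytes, was at 7.5, 11.6, 0.239, 16.1, 20.4 and 17.4 CPM in low growth. High growth replicates 1 to 6 stood at 7.00, 6.97, 13.3, 7.21, 5.23 and 12 CPM. Replicate 3 was far below the others, and replicates 4, 5 and 6 were above every high growth library. The log2 difference was 0.50 ± 0.49 and 0.76 ± 0.30 without replicate 3. Microglia and macrophage genes were above in 6 and 9 of 19, with medians of -0.14 and -0.02, and endothelial and blood-brain barrier genes in 13 and 12 of 17, with medians of 0.24 and 0.03. CLDN5, the main seal of brain vessels, had a log2 fold change of -0.54 ± 0.26 without replicate 3 and -0.16 ± 0.31 with it.

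Lists of neighbouring tissues and other cells differed in how far they moved when replicate 3 was left out. Pineal genes were above 0 in 15 and 10 of 16 cases, with medians of 3.48 and 0.09. Choroid plexus genes were above in 10 of 12 in both, with medians of 1.0 and 0.25, and mesenchymal and meningeal genes in 11 and 10 of 15, with medians of 0.58 and 0.25. Without replicates 1 and 3 the choroid plexus list had 6 of 12 above 0, with a median of 0.12. The mesenchymal and meningeal list then turned to 2 of 15, with a median of -0.31. Cell cycle genes were above in 27 and 24 of 30, with medians of 0.36 and 0.12, and -0.05 without replicates 1 and 3. Habenula and thalamus genes were above in 9 and 7 of 13, with medians of 0.48 and 0.07, and telencephalon genes in 7 and 8 of 15, with medians of -0.00 and 0.19. Pituitary genes were above in 6 and 5 of 7, with medians of 0.32 and 0.45, and -0.25 without replicates 1 and 3. Ependymal and motile cilia genes were above in 6 of 22 in both, with medians of -0.17 and -0.14, and in 1 of 22 without replicates 1 and 3, with a median of -0.36. Without the Y-expressing high growth libraries this list turned to 16 of 22 with a median of 0.28, and to 19 of 22 with 0.34 without replicate 3 as well. Erythroid genes were above in 0 and 2 of 5, with medians of -0.28 and -0.15. The globins among them are near-identical copies between which reads can be split.

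**Figure D5:**
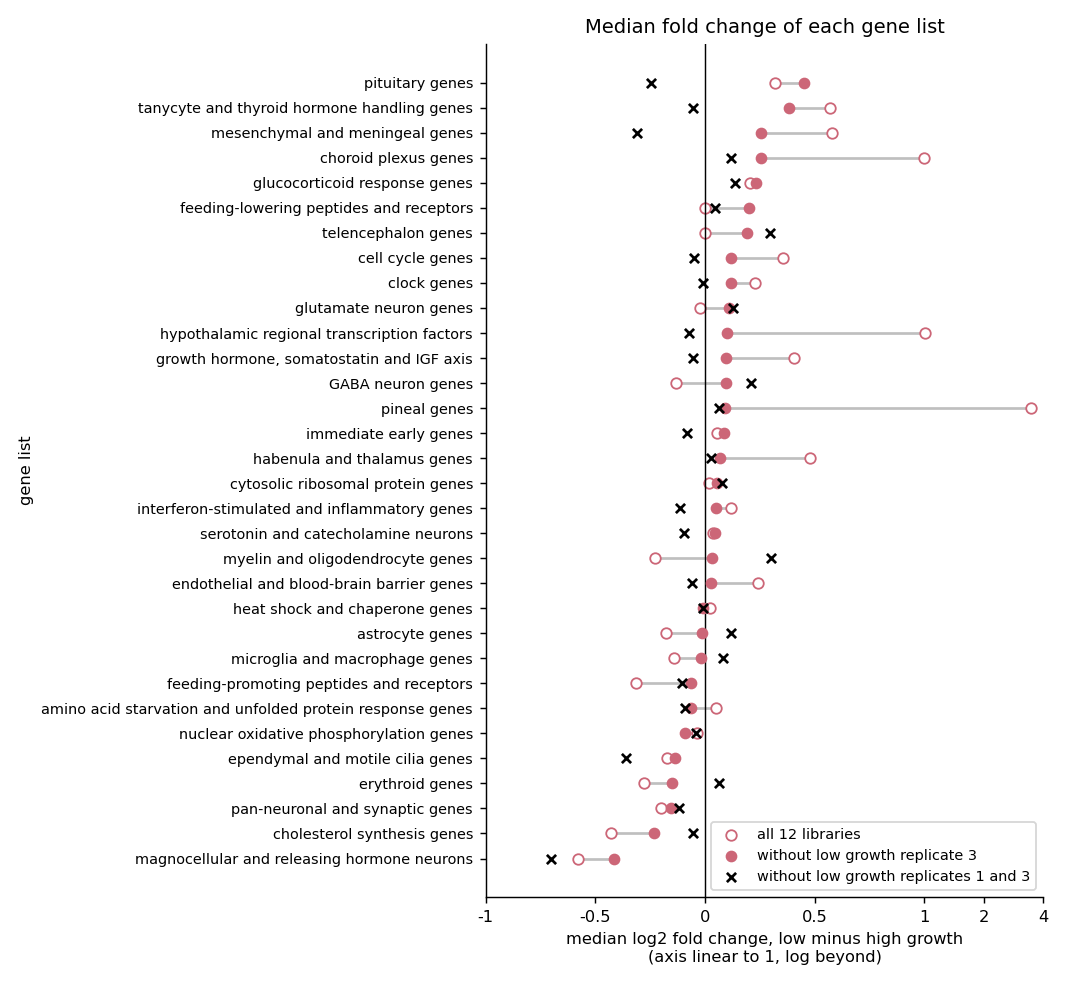
Median log2 fold change (low minus high growth) of each gene list with all 12 libraries (open), without low growth replicate 3 (filled) and without low growth replicates 1 and 3 (crosses); the axis is linear to 1 and log beyond. The pineal list goes from 3.48 to 0.09, and the glucocorticoid list lies between 0.14 and 0.23 in the settings drawn.

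Among the genes with lower levels in low growth, LCAT (chromosome 6, 28550356 to 28553561), which esterifies cholesterol in plasma and cerebrospinal fluid lipoproteins, was at 1.27, 4.8, 4.85, 2.74, 2.10 and 5.25 CPM in low growth. The high growth libraries were at 8.78, 8.81, 8.30, 5.65, 3 and 7.11 CPM. Only high growth replicate 5 reached into the low growth range. The growth groups differed by a log2 fold change of -0.99 ± 0.33, and -1.10 ± 0.35 without replicate 3. SCNN1B, a subunit of the epithelial sodium channel, was at 0.351 to 3.01 CPM in low growth and at 1.67 to 12.9 CPM in high growth, where replicates 3, 4 and 5 were above every low growth library. The value for low minus high growth (log2) was -1.95 ± 0.76, and -1.79 ± 0.81 without replicate 3. NPVF, the RFamide peptide gene that inhibits reproduction, was at most 0.765 CPM in low growth and 0.0806 to 5.17 CPM in high growth, with a log2 fold change of -2.24 ± 1.03.

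The growth effect on day 39 was also set against that on day 7, measured in 12 other hypothalamus libraries of the same fit. With all libraries 0 of 15865 genes (0.0%) differed between days at an edgeR adjusted p of 0.05, and 1233 did at unadjusted p. Without replicate 3 it was 0 of 16016 (0.0%) and 935. DESeq2 called 1 gene with all libraries and 0 without replicate 3. That gene was SLC6A4, which in low growth on day 39 is high in replicate 3 only. Its log2 fold change on day 7, which also enters this difference, was -5.87 ± 1.99 (edgeR adjusted p = 0.549), and its day 7 libraries are not given here. Without replicate 3 the difference between days was 6.29 ± 1.75 (edgeR adjusted p = 0.830). For SLCO1C1 the log2 fold change on day 7 was 0.96 ± 0.94 and the difference between days 2.98 ± 1.30 without replicate 3. For CYP26B1 it was -0.47 ± 0.64, with a difference of 3.75 ± 0.94 (adjusted p = 0.830), and for NPY 0.48 ± 0.78, with a difference of 3.19 ± 1.14. For NR3C2 day 7 had -0.30 ± 0.12, on the other side of 0 from day 39, with a difference of 0.62 ± 0.17 (adjusted p = 0.830). FKBP5 had 0.49 ± 0.28 on day 7, close to its day 39 value, with a difference of 0.20 ± 0.41. Of the 20 glucocorticoid genes 13 were above 0 on day 7, with a median of 0.15, and of the 25 cholesterol genes 5, with a median of -0.32.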

How the data were processed

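RNA of whole hypothalamus tissue was sequenced, and the authors deposited a table of estimated counts per Ensembl gene, of which 53.0% are not whole numbers, and a table of normalized signal, of which 1 cell held no numeric value and stayed out. The submitters' processing notes name Trim Galore, kallisto, DESeq2 and Sscrofa11.1, while versions and order are not stated in those notes. Estimated counts share reads among near-identical genes, so such genes are uncertain.

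Counts were rounded. The main test was edgeR 4.0.16's quasi-likelihood test (R 4.3.3) with TMM scaling, filterByExpr (minimum count 10, minimum total 15) and the 24 hypothalamus libraries in 4 groups of growth and day, contrasting low minus high growth on day 39, with Benjamini-Hochberg adjustment at 0.05. It was run on simulated data with known changes. Apart from those changes every simulated library had the same gene means, so none stood for a library with pineal or pituitary genes. How the test performs with such libraries was not tested. DESeq2 1.42.0 and limma 3.58.1 were alternatives, beside other scalings, filters, left-out libraries and limma on log2 of the authors' deposited normalized signal plus 1 or 10. Total counts of 14168700 to 21122800 set a floor of 3 counts, or 0.142 to 0.212 CPM, for counting error only.

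Symbols and coordinates came from the RefSeq table of Sscrofa11.1 and a table of gene names: 14894 of 22924 gene IDs had a symbol. The 33 gene lists hold 734 symbols, of which 611 matched. POMC, MC4R and TRH had no match. The members and lists were chosen with earlier results of these data known. Genes were named by fixed rule: those of lowest p or called, those of highest and lowest fold change, the 3 of lowest p in each list, a set fixed by name, and those of lowest p whose groups do not overlap. Members of lists, pituitary and pineal markers and non-overlapping genes beyond these were picked after their values were seen. Some items are not reported here.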

Additional observations from a re-analysis of the deposited data

Results flagged for a closer look

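In 21 of 207 groups of values examined, 1 library stood apart from the rest of its group by Dixon's ratio. The cut-off is passed by chance in about 1 in 20 groups of genes that were not picked. Several genes here were named for their low p or high fold change, so the 21 cannot be weighed against that rate. Low growth replicate 1 accounted for 8, low growth replicate 3 for 9 and high growth libraries for 3, and groups with and without replicate 3 share libraries. No explanation was tested.

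Low growth replicate 3 was highest for CRABP1 at 6340 CPM, BMAL1 at 50.3, RORA at 45.5, SLC17A7 at 1445, SLC6A4 at 713 and ASMT at 1552 CPM. It was lowest for ZBTB16 at 7.78 CPM and ALDH1L1 at 0.239 CPM. The pineal list had a mean log2 CPM of 6.65 there.

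Low growth replicate 1 was highest for CRYM at 815 CPM and NR3C2 at 34.9 CPM, each in the group with and without replicate 3. It was highest for CCDC60 at 6.02 CPM in the whole group, and for SLCO1C1 at 56.2 CPM and MSX1 at 110.7 CPM in the group without replicate 3. There it was lowest for the astrocyte list, at a mean log2 CPM of 8.12 against 9.11 to 9.30.

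ZBTB16 in low growth without replicate 3 was lowest in replicate 4 at 19.9994 CPM, against 30.6 to 33.8 CPM. In high growth, SLC17A7 was highest in replicate 5 at 2.29 CPM, ASMT was lowest in replicate 3 at 0.161 CPM, and the amino acid starvation and unfolded protein response list was highest in replicate 4 at a mean log2 CPM of 5.39.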

How the results depend on the processing

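EdgeR and limma called 0 genes under each setting run, and DESeq2 called 18 genes with all libraries (890 at unadjusted p), 7 without low growth replicate 3 (394) and 1 for the difference from day 7 (1402). Non-overlapping higher genes numbered 5 and, without replicate 3, 9 on raw library size, and 127 and 181 without the Y-expressing high growth libraries, where lower ones numbered 44 and 81. Leaving out 1 library gave 14 to 42 higher and 7 to 29 lower with all libraries, and 28 to 83 and 12 to 61 without replicate 3, as fewer libraries overlap less often. Genes higher at unadjusted p then numbered 269 (without low growth replicate 3) to 1083 with all libraries, and 78 (without low growth replicate 1) to 447 (without low growth replicate 2) without replicate 3. Lower ones numbered 97 to 286 and 62 (without high growth replicate 4) to 232, both highest without low growth replicate 2.

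Over the fits that each leave out 1 library, with all others in, log2 fold changes ran from -0.32 to 2.91 for CRYM, -0.074 to 2.14 for TBX3, -0.044 to 2.04 for LHX2 and -1.33 to 3.36 for GHRH. Without replicate 3 in any of them they ran from -0.18 to 3.20 for CRYM, -0.21 to 2.31 for TBX3, -0.032 to 4.28 for MSX1, -0.15 to 4.67 for CAPN6, -1.01 to 3.62 for GHRH and -0.31 to 0.61 for SLC17A7. The values below 0 came from leaving out low growth replicate 1, and for SLC17A7 replicate 4. Under limma voom with sample weights AGRP was -0.25 and -0.40, GHRH -0.12 and -0.033, and CAPN6 without replicate 3 -0.24. Without the Y-expressing high growth libraries AVP was 3.55 and 3.81 and OXT 1.94 and 2.21. ALDH1L1 was -0.18 under limma voom and -0.19 on the authors' normalized values plus 1. The cause was not tested. The other settings kept the direction and the call in 848 of 871 gene values, 12 more became called and 11 reversed, and left-out libraries in 840 of 850. No paired analysis was possible because replicate numbers were given in accession order and pair nothing. Promoter motifs were not examined. Depth limits genes near 3 counts, and no label gives sex: 3 of 6 high growth libraries express Y-linked genes, and without them SLCO1C1 was 4.22, CYP26B1 2.98 and NR3C2 0.33.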
